A study of Homo sapiens with 4 samples.

Results

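The genes described here encode the enzymes that build purine and pyrimidine nucleotides from small precursors. They are 10 genes of the 28973 in the deposited table, matched by symbol: PPAT, GART, PFAS, PAICS, ADSL and ATIC for purines, and CAD, DHODH, UMPS and CTPS1 for pyrimidines. Each symbol stood on 1 row, and all 10 were abundant enough to be tested. RNA was sequenced from TOV-112D, an established human ovarian cancer cell line, under palmitic acid (PA, 2 libraries, labelled 200 µM and 24 h) and under bovine serum albumin (BSA, 2 libraries, labelled with the same concentration and time). All cells grew in RPMI-1640 medium with fetal bovine serum. Palmitic acid, a common saturated fat, reaches cultured cells on albumin, which makes albumin alone the carrier control. The title of the series asks how palmitic acid acts on the biology of ovarian cancer. Whether each library had its own culture is not in the labels, so the p-values below speak to spread among these 4 libraries, which could be technical.

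Labels of the PA group disagree among themselves. Titles and treatment fields name palmitic acid, the description field names a knockdown of SPTLC2, and the protocol also mentions cells with a short hairpin against ZDHHC15. SPTLC2 stood at 75.5 and 75.7 CPM (counts scaled to library size and normalised between libraries) in the libraries labelled PA, against 51.0 and 33.9 CPM in BSA. ZDHHC15 stood at 6537 and 7298 CPM in PA, against 9.74 and 7.06 CPM in BSA. Both genes were thus higher in the libraries labelled PA than in BSA. Which of the labelled treatments those libraries had was not tested. Every direction below is drawn from libraries that carry this conflict.

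De novo synthesis assembles the purine ring step by step on an activated ribose, and ends at IMP, the precursor of both AMP and GMP. The pyrimidine ring is built before the ribose is attached, which gives UMP and then CTP. Proliferating tumour cells draw on both routes for RNA, DNA and nucleotide cofactors, and several of the enzymes are textbook targets of the MYC transcription factor.

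Total counts were 29662410 and 23722074 in PA replicates 1 and 2, and 28657038 and 31695944 in BSA replicates 1 and 2. Of 17449 genes tested with edgeR (quasi-likelihood), 0 had an adjusted p under 0.05 and 4241 (24.3%) had an unadjusted p under 0.05. DESeq2 gave 1824 genes (10.5%) an adjusted p under 0.05, 4.34% of all genes lower in PA, and 0 of the 10 members among them. The BSA libraries stood apart from each other: log2 ratios between replicates had an SD over genes of 0.41 in PA and 1.00 in BSA. The ratio of BSA replicate 2 to replicate 1 followed GC content, with a median log2 value of -1.45 in the lowest of 10 GC bins and 0.45 in the eighth. Each member is therefore also given without each BSA library, which leaves BSA with a lone library. Keratin genes KRT8, KRT18 and KRT7 were abundant (554 to 1791 CPM), while the epithelial markers EPCAM and CDH1 lay under 1 CPM in all 4 libraries. Summed markers of endothelial cells were 3.47 and 3.22 CPM in PA and 0.268 and 0.533 CPM in BSA, and those of immune cells were 2.79 and 2.22 CPM in PA and 3.82 and 7.21 CPM in BSA. Fibroblast markers summed to 126 and 161 CPM in PA and 119 and 114 CPM in BSA, nearly all of it COL1A1, with COL1A2 at 0 counts throughout. The part of these other markers in the results below was not tested.

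All 6 purine genes had a negative log2 fold change in PA over BSA, with a median of -0.55, against -0.12 over all genes tested. In 5 of the 6 the PA libraries both lay below the BSA libraries, against 29.1% of all genes tested. The 4 pyrimidine genes had a median of -0.10, with 1 of 4 separated in this way. These medians depended on the BSA libraries: without BSA replicate 1 they were -0.39 for the purine genes, 5 of 6 negative, and -0.25 for the pyrimidine genes. Without BSA replicate 2 they were -0.84 for the purine genes and 0.00 for the pyrimidine genes. None of the 10 passed over all genes tested (edgeR, smallest adjusted p = 0.178, for PAICS), and the difference between the purine and the pyrimidine genes was not tested.

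**Figure D1:**
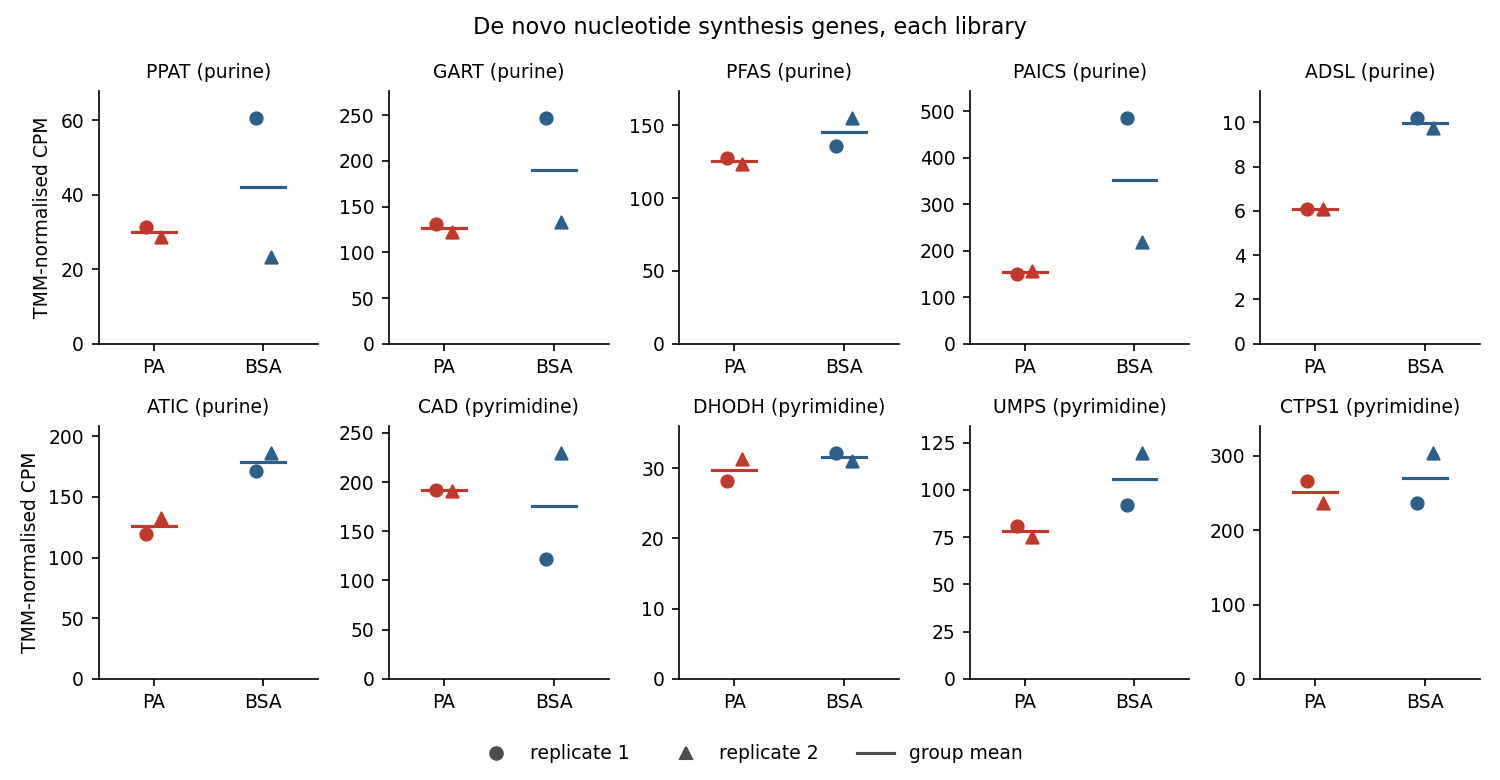
Normalised level (TMM-normalised CPM, vertical axes from 0) of each of the 10 genes in each library, PA left and BSA right, with circles for replicate 1, triangles for replicate 2 and lines for group means. The PA replicates lie close together in every panel, while PPAT, GART, PAICS and CAD differ widely between the BSA replicates (486 and 219 CPM for PAICS).

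PPAT encodes the amidotransferase that commits ribose phosphate to the purine route and is inhibited by its end products (ENSG00000128059, hg38 chromosome 4, 56393362 to 56435615, minus strand). It stood at 31.3 and 28.7 CPM in PA, against 60.8 and 23.3 CPM in BSA. The groups overlapped, because BSA replicate 2 was the lowest of the 4 libraries and BSA replicate 1 the highest. Its log2 fold change was -0.49 ± 0.49 (SE), with an edgeR adjusted p of 0.556. Its direction depended on which BSA library was used: it was -1.01 without BSA replicate 2 and 0.39 without BSA replicate 1. PPAT has the lowest GC content of the 10 genes in its longest transcript (33.8%), and the log2 ratio between its BSA libraries, -1.38 for replicate 2 over replicate 1, was close to the median of -1.45 for genes in its GC bin.

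PAICS, the neighbour of PPAT on the other strand, encodes a bifunctional enzyme that carboxylates the imidazole ring and attaches aspartate to it (ENSG00000128050, chromosome 4, 56435741 to 56464578, plus strand). It stood at 150 and 157 CPM in PA, against 486 and 219 CPM in BSA. Both PA libraries lay below both BSA libraries, and the BSA libraries themselves differed by 2.22 times. PAICS had the largest difference among the 10 genes, with a log2 fold change of -1.20 ± 0.41 (SE), or 0.436 times the BSA level. It was the only member with an unadjusted edgeR p under 0.05, which is 1 of 10 members lower against 11.2% of all genes tested, and so near the background. Its edgeR adjusted p was 0.178. The log2 fold change was -0.49 without BSA replicate 1 and -1.65 without BSA replicate 2. Without either PA library its unadjusted edgeR p was no longer under 0.05. GENCODE 29 lists 7 pseudogenes named after PAICS and 2 named after PPAT, and reads shared with them could not be separated here.

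PPAT and PAICS are transcribed away from each other from starts only 125 bases apart in the deposited table, so a single stretch of DNA lies upstream of both. That stretch and the E-box sites found near members are shown because these genes lie side by side. Their log2 fold changes were -0.49 ± 0.49 (SE) for PPAT, whose groups overlapped, and -1.20 ± 0.41 (SE) for PAICS, whose groups did not. The difference between the genes was not tested. The E-box CACGTG, its own reverse complement, is the motif bound by MYC with MAX and by USF factors. Sequences are from RefSeq promoter windows (GRCh38.p14, 250 bases before to 50 after each start), which matched 9 of the 10 genes, all but ADSL. The motifs were chosen after the windows had been seen. Capitals mark the GC box GGGCGG in the first line and CACGTG in the others.
PPAT and PAICS, between the starts, chr4:56435616-56435740, plus strand: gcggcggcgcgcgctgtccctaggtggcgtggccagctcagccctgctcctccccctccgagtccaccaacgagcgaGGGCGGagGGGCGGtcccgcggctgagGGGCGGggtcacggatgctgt
PPAT and PAICS, shared site, chr4:56435780-56435809, minus strand: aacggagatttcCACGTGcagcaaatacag
ATIC, chr2:215312001-215312030, plus strand: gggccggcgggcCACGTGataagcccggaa
DHODH, chr16:72008573-72008602, plus strand: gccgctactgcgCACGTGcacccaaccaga
The shared site lies at base -182 from the RefSeq start of PPAT and at base 41 of PAICS, where base 1 is the start itself. ATIC held CACGTG at base -46 and again at base 30, and DHODH at base -159. In all, 4 of the 9 genes with a window held CACGTG, PPAT and PAICS through the same bases, against 8.8% of 27305 genes. GGGCGG, searched on both strands, was found in windows of 8 of the 9, all but UMPS, against 48.3% of genes. CCAAT on both strands was found in 3 of the 9, GART, CAD and DHODH, against 39.7%. A match describes these letters in these windows and says nothing of what binds there.

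GART encodes a single protein that carries out 3 separate steps, among them a transfer of a formyl group from folate (ENSG00000159131, chromosome 21, 33503931 to 33543491, minus strand). Its level was 131 and 122 CPM in PA, against 247 and 133 CPM in BSA. The groups did not overlap, but BSA replicate 2 lay close to the PA libraries. This gave a log2 fold change of -0.59 ± 0.34 (SE; edgeR adjusted p = 0.328). Without BSA replicate 1 it was -0.05, so the difference rested on that library. GART shares 454 bases with SON on the opposite strand, and their reads there cannot be told apart if counting ignored strand.

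PFAS encodes the enzyme that brings in a glutamine nitrogen midway along the route (ENSG00000178921, chromosome 17, 8247618 to 8270491, plus strand). It stood at 127 and 123 CPM in PA, against 136 and 155 CPM in BSA, and the groups did not overlap. The difference was small, with a log2 fold change of -0.21 ± 0.20 (SE; edgeR adjusted p = 0.521). It stayed negative without either BSA library (-0.29 without replicate 1, -0.10 without replicate 2).

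ADSL encodes a lyase that acts late in the route to IMP and again on the way from IMP to AMP (ENSG00000239900, chromosome 22, 40346461 to 40390463, plus strand). It had only 177 and 140 counts in PA, against 305 and 311 counts in BSA, which made 6.09 and 6.09 CPM in PA and 10.2 and 9.75 CPM in BSA. Replicates agreed closely within both groups and the groups did not overlap. ADSL had a log2 fold change of -0.71 ± 0.30 (SE; edgeR adjusted p = 0.224), and it was -0.66 without BSA replicate 1 and -0.73 without BSA replicate 2. ADSL shares 19873 bases with SGSM3 on the same strand, and a further protein-coding entry, ENSG00000284431, spans both genes. Reads in the shared stretch may have been dropped or split by the authors' counting, so its level is uncertain. SGSM3 went the other way, at 110 and 93 counts in PA against 56 and 58 counts in BSA (log2 fold change 1.08, edgeR adjusted p = 0.148).

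ATIC encodes the bifunctional enzyme that adds the last carbon and closes the ring to IMP (ENSG00000138363, chromosome 2, 215311956 to 215349773, plus strand). It stood at 119 and 132 CPM in PA, against 172 and 186 CPM in BSA, without overlap. The difference was -0.51 ± 0.20 (SE) on the log2 scale, or 0.702 times the BSA level, with an edgeR adjusted p of 0.206. It moved little with the BSA library left out (-0.55 without replicate 1, -0.44 without replicate 2).

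CAD encodes the large protein that holds the opening 3 activities of pyrimidine synthesis (ENSG00000084774, chromosome 2, 27217369 to 27243943, plus strand). It stood at 192 and 191 CPM in PA, against 122 and 230 CPM in BSA, so both PA libraries lay between the BSA libraries. CAD had a log2 fold change of 0.12 ± 0.34 (SE; edgeR adjusted p = 0.842). It was 0.67 without BSA replicate 2 and -0.24 without BSA replicate 1, and no direction can be given. The log2 ratio of BSA replicate 2 to replicate 1 was 0.92 for CAD, whose transcript has 57.7% GC, against a median of 0.45 in its GC bin.

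DHODH encodes the mitochondrial enzyme that oxidises dihydroorotate and passes the electrons to the respiratory chain (ENSG00000102967, chromosome 16, 72008588 to 72027664, plus strand). Its level was 28.2 and 31.3 CPM in PA, against 32.2 and 31.1 CPM in BSA. The groups overlapped, and the log2 fold change was -0.09 ± 0.25 (SE; edgeR adjusted p = 0.847). It was -0.04 without BSA replicate 1 and -0.10 without BSA replicate 2.

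UMPS encodes the bifunctional enzyme that attaches the ribose and makes UMP (ENSG00000114491, chromosome 3, 124730433 to 124749273, plus strand). It stood at 80.8 and 75.3 CPM in PA, against 91.8 and 120 CPM in BSA. It was the pyrimidine gene whose groups did not overlap, with a log2 fold change of -0.44 ± 0.23 (SE; edgeR adjusted p = 0.294). Without BSA replicate 1 this was -0.60, and without BSA replicate 2 it was -0.22.

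CTPS1 encodes the CTP synthase that proliferating lymphocytes depend on (ENSG00000171793, chromosome 1, 40979300 to 41012565, plus strand). It stood at 266 and 237 CPM in PA, against 237 and 304 CPM in BSA, and the groups overlapped. CTPS1 had a log2 fold change of -0.11 ± 0.23 (SE; edgeR adjusted p = 0.793). Its direction turned with the BSA library used, at -0.26 without replicate 1 and 0.10 without replicate 2.

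**Figure D2:**
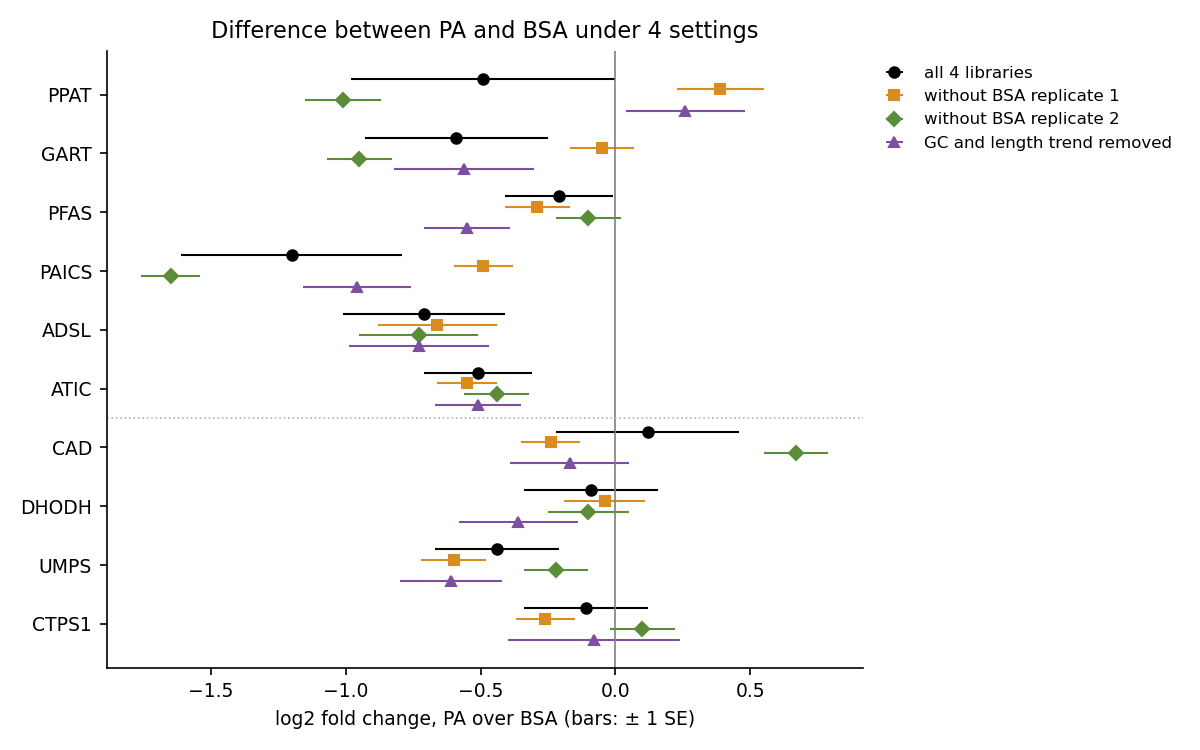
Log2 fold change of PA over BSA (horizontal axis, bars ± 1 SE) for each gene in pathway order, purine genes above the dotted line, with all 4 libraries, without each BSA library, and after removal of a trend over GC content and length. ADSL and ATIC keep nearly the same value in all 4 settings, whereas PPAT, CAD and CTPS1 change sign.

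Read together, 9 of the 10 genes had a negative log2 fold change, against 55.9% of all genes tested, and the median over the 10 was -0.46. The groups did not overlap in 6 of the 10, all 6 lower in PA (GART, PFAS, PAICS, ADSL, ATIC and UMPS), against 29.1% of all genes tested lower without overlap. With 2 libraries against 2, an exact two-sided permutation test cannot give a p below 0.333. Without BSA replicate 1, edgeR called 5 members lower at an adjusted p under 0.05 (PFAS, PAICS, ADSL, ATIC and UMPS) and PPAT higher. In that fit 22.6% of all genes were called lower and 25.3% higher. Without BSA replicate 2, it called PPAT, GART, PAICS, ADSL and ATIC lower and CAD higher, where 30% of all genes were called lower and 27.3% higher. PAICS, ADSL and ATIC were among the lower members of both fits, but both fits use the same 2 PA libraries. The share of all genes called lower in both was not counted. At an unadjusted p under 0.05, 7 members were lower and 1 higher without BSA replicate 1 (all genes, 25.4% lower and 27.9% higher), and 5 lower and 1 higher without BSA replicate 2 (31.9% lower and 29.2% higher). In those fits only PA has 2 libraries and so sets the spread, and PA varied less than BSA, and they call a large share of all genes.

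In a fit with a trend over GC content and length removed, PAICS passed over all genes tested, with a log2 fold change of -0.96 ± 0.20 (SE; edgeR adjusted p = 0.0428), which is 1 of 10 members lower, against 3.28% of all genes, and 0 higher, against 6.03%. At an unadjusted p under 0.05, 5 of the 10 were lower (PFAS, PAICS, ADSL, ATIC and UMPS), against 15.6% of all genes, and 0 were higher, against 15.9%. PFAS moved to -0.55 ± 0.16 (SE), and PPAT to 0.26 ± 0.22 (SE).

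**Figure D3:**
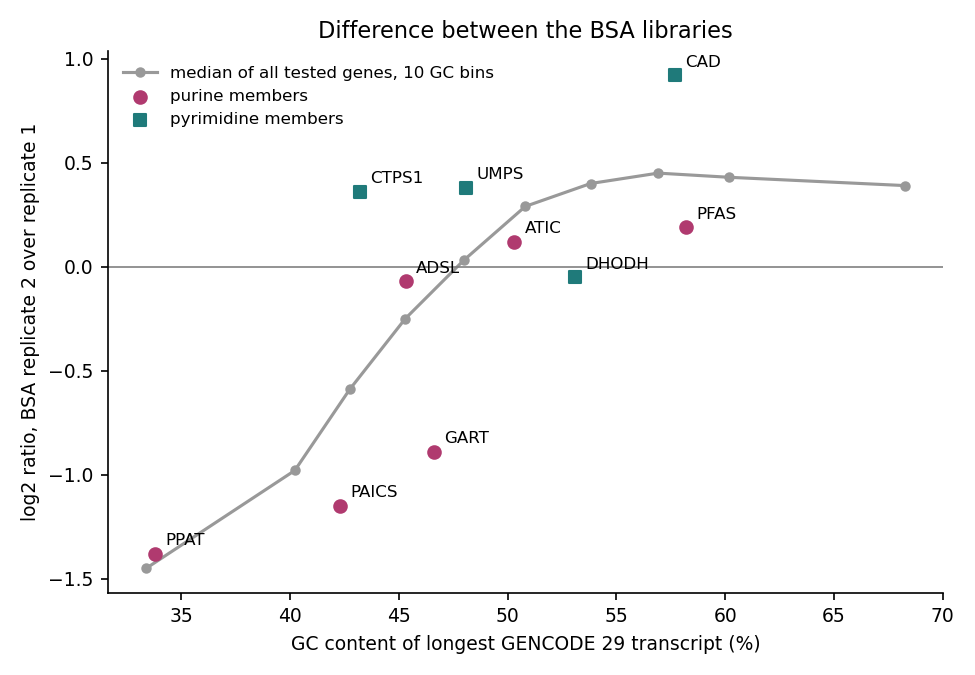
Log2 ratio of BSA replicate 2 over BSA replicate 1 (vertical axis) against the GC content of each gene's longest transcript in percent (horizontal axis), for the 10 genes and for the medians of all tested genes in 10 GC bins. PPAT lies close to the line of medians. GART, PAICS, DHODH, PFAS and ATIC lie below it, and CTPS1, CAD, UMPS and ADSL lie above it.

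The BSA ratio of the other members departed from the GC medians in both directions. GART had a log2 ratio of -0.89, against a median of -0.25 in its bin, and PAICS had -1.15, against -0.59. CTPS1, with 43.2% GC, had 0.36 in the same bin as PAICS. The purine genes GART, PAICS and PPAT were thus higher in BSA replicate 1, and the pyrimidine genes CAD, UMPS and CTPS1 were higher in BSA replicate 2. ADSL, PFAS, ATIC and DHODH had log2 ratios from -0.07 to 0.19. Of these, the pyrimidine gene DHODH had -0.05, against a median of 0.40 in its bin. Between the PA libraries the ratios of all 10 genes lay between -0.16 and 0.15.

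Levels between genes were compared per length, as FPKM (fragments per length and depth) deposited by the authors. In PA, ATIC was the highest member at 32.3 ± 2.12 FPKM (SD, n = 2 here and below), followed by CAD at 22.1 ± 0.240, CTPS1 at 20.5 ± 1.81, PAICS at 19.9 ± 0.457, PFAS at 18.9 ± 0.569 and GART at 15.9 ± 0.905 FPKM. CTPS1 differed from both of its neighbours in that order, CAD and PAICS, by less than its own SD. UMPS followed at 10.1 ± 0.582, PPAT at 5.38 ± 0.381, DHODH at 4.19 ± 0.269 and ADSL at 0.490 ± 0.00382 FPKM. In BSA, ATIC stood at 48.4 ± 1.60 and PAICS at 48.3 ± 27.0 FPKM, which the spread of PAICS does not separate. GART at 25.3 ± 11.3, CTPS1 at 23.1 ± 3.50, PFAS at 23.0 ± 1.60 and CAD at 21.2 ± 8.74 FPKM overlapped as well. UMPS at 14.4 ± 2.33, PPAT at 7.97 ± 5.19, DHODH at 4.68 ± 0.239 and ADSL at 0.845 ± 0.0485 FPKM closed the order. In these FPKM values PPAT, which starts the purine route, thus lay well below most of the genes after it, in both groups. PPAT has a low GC content (33.8%), and its FPKM were 11.6 and 4.30 in BSA replicates 1 and 2. The part of GC content in this order was not tested.

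The FPKM of ADSL depends on the gene length the authors used. Counts divided by FPKM imply 12109 bases for ADSL, whereas its longest GENCODE 29 transcript has 4359 bases. A similar gap held for CTPS1 (11958 and 5325 bases) and GART (7751 and 3571 bases), so FPKM levels of these genes would be higher over transcript length. Summed over the 6 purine genes, FPKM were 92.5 and 93.5 in PA, against 182 and 125 in BSA. Summed over the 4 pyrimidine genes they were 58.6 and 55.3 in PA, against 53.3 and 73.5 in BSA. In bulk RNA a smaller number of cells that express a gene and less of its RNA per cell cannot be told apart.

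Genes around these routes were counted in 8 lists of 98 genes, of which 91 were tested. At an unadjusted edgeR p under 0.05, 15 were lower and 6 higher in PA, against 11.2% and 13.1% of all genes, and 0 passed over all genes tested. The median log2 fold change of the 91 was -0.37. List medians are also given without each BSA library, since most of them moved.

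Deoxynucleotide supply, which turns ribonucleotides into the precursors of DNA, had the lowest median of the 8 lists, -1.01, and all 8 tested genes were negative. Of these, 4 were lower at an unadjusted p under 0.05 and 0 were higher, and in 7 of 8 the groups did not overlap, against 29.1% of all genes tested. In RRM2B, the other one, BSA replicate 2 was the lowest library. RRM2, the S-phase subunit of ribonucleotide reductase, stood at 60.8 and 59.9 CPM in PA, against 219 and 150 CPM in BSA (log2 fold change -1.61 ± 0.26 SE, edgeR adjusted p = 0.0724). DUT, which removes dUTP, had a log2 fold change of -1.15 (edgeR adjusted p = 0.0845). SAMHD1, which degrades deoxynucleotides, had -1.22 (edgeR adjusted p = 0.087). These were the 3 genes of smallest edgeR p in the list. With DESeq2 all 3 had an adjusted p under 0.05 (0.00104 for RRM2, 0.0160 for DUT and 0.0123 for SAMHD1). In that test 4.34% of all genes were lower in PA at the same threshold. The list median was -0.95 without BSA replicate 1, -1.14 without BSA replicate 2 and -0.86 once the trend over GC content and length was removed, so it stayed well below 0.

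Enzymes that feed or leave the de novo routes had a median of -0.52 over 10 genes, but 0 were lower and 1 was higher at an unadjusted p under 0.05. The median was -0.08 without BSA replicate 1, -0.45 without BSA replicate 2 and -0.20 once the trend was removed. The higher gene was PRPSAP1, an associated protein of the ribose activating synthetase, at 61.5 and 71.1 CPM in PA, against 39.7 and 35.7 CPM in BSA (log2 fold change 0.82, edgeR adjusted p = 0.139). The synthetase genes PRPS1 and PRPS2 had log2 fold changes of -0.18 and -0.48, which were 0.01 and -0.16 without BSA replicate 1. GMPS, which makes GMP, stood at 52.6 and 50.8 CPM in PA, against 302 and 61.3 CPM in BSA, so its log2 fold change of -1.81 ± 0.74 (SE) rested on BSA replicate 1, without which it was -0.23. IMPDH2, which opens the branch to GMP, stood at 9.46 and 10.4 CPM in PA, against 11.5 and 22.3 CPM in BSA. Its log2 fold change of -0.77 was -0.20 without BSA replicate 2, and its relative IMPDH1 had 0.19, neither with an unadjusted p under 0.05. ADSS1, on the branch to AMP, had -0.56, and CTPS2, the second CTP synthase, had -0.97 at 14.2 and 14.1 CPM in PA, against 38.8 and 16.8 CPM in BSA (-0.22 without BSA replicate 1).

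The folate and serine list, whose products supply carbon to GART and ATIC, had a median of -0.29 over 16 tested genes, with 4 lower and 1 higher at an unadjusted p under 0.05. The median was -0.45 without BSA replicate 1 and -0.07 without BSA replicate 2. MTHFD2, a mitochondrial folate enzyme, stood at 188 and 184 CPM in PA, against 290 and 458 CPM in BSA (log2 fold change -1.01, and -0.63 without BSA replicate 2). The higher gene was SLC19A1, the reduced folate carrier, at 59.2 and 62.9 CPM in PA, against 30.3 and 28.2 CPM in BSA (log2 fold change 1.06). GENCODE 29 lists 7 pseudogenes named after MTHFD2, 3 after RRM2, 8 after DUT and 6 after AK4, which makes their counts uncertain.

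Salvage genes, which recycle free bases and nucleosides, were mixed, with 3 lower and 3 higher of 17 and a median of -0.30. This median was -0.07 without BSA replicate 1, 0.00 without BSA replicate 2 and -0.17 once the trend was removed. The 3 of smallest p were all higher: the nucleoside transporters SLC29A2 (log2 fold change 1.35) and SLC29A1 (1.06), and the cytidine deaminase gene CDA (0.75). SLC29A2 stood at 123 and 129 CPM in PA, against 59.6 and 39.4 CPM in BSA. In edgeR with all 4 libraries none of the 3 passed over all genes tested, at adjusted p values of 0.0873 for SLC29A2, 0.132 for SLC29A1 and 0.175 for CDA. SLC29A2 passed with DESeq2 (adjusted p = 0.00955) and in edgeR without a filter (adjusted p = 0.0239), and CDA passed in edgeR with the trend removed (adjusted p = 0.0400). SLC29A2 did not pass in edgeR with the trend removed (adjusted p = 0.0817). CDA did not pass with DESeq2 (adjusted p = 0.203) or in edgeR without a filter (adjusted p = 0.134). SLC29A1 passed neither with DESeq2 (adjusted p = 0.0678) nor in edgeR with the trend removed (adjusted p = 0.157). A replicate block assumes that equal replicate numbers mark pairs, which could not be settled. With that block and the trend removed all 3 passed in edgeR. The edgeR adjusted p values in that fit were 0.00557 for SLC29A2, 0.0337 for SLC29A1 and 0.0322 for CDA. These settings also called many of all genes higher in PA at an adjusted p under 0.05. The number was 1066 of 17449 with DESeq2 and 843 of 27574 without a filter. It was 1001 of 16596 with the trend removed and 1472 of 16596 with the block as well.

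Among 12 nucleotide kinases the median was -0.43, with 1 lower, the mitochondrial adenylate kinase gene AK4 (log2 fold change -1.37), while CMPK1 (-1.32) missed that threshold. AK4 stood at 33.1 and 31.4 CPM in PA, against 116 and 50.5 CPM in BSA, and CMPK1 at 29.9 and 25.6 CPM in PA, against 107 and 31.4 CPM in BSA. These values rested largely on BSA replicate 1: without it the list median was -0.17, AK4 was -0.63 and CMPK1 was -0.16. Over 10 breakdown genes the median was 0.00 (0.16 without BSA replicate 1, 0.14 without BSA replicate 2), with the AMP deaminase gene AMPD3 higher (1.03), the pyrimidine catabolic gene DPYD lower (-1.54, and -0.82 without BSA replicate 1), and GDA, which deaminates guanine, at -1.35, past neither threshold; without BSA replicate 1 it was 0.01. For glutamine and aspartate supply the median over 9 genes was 0.06 (0.23 without BSA replicate 1, 0.27 without BSA replicate 2). The liver-type glutaminase gene GLS2, under 1 CPM in all 4 libraries, was the 1 lower gene, and the glutamine transporter SLC1A5 (0.62) and the aspartate carrier SLC25A13 (-0.43) did not reach an unadjusted p of 0.05.

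Over 9 tested regulators the median was -0.53, with 1 lower, MXI1, an antagonist of MYC (log2 fold change -1.10, edgeR adjusted p = 0.203). The direction of that median turned, at -0.36 without BSA replicate 1 and 0.08 without BSA replicate 2. MXI1 was -0.36 without BSA replicate 1. MYC itself stood at 485 and 590 CPM in PA, against 771 and 677 CPM in BSA, without overlap (log2 fold change -0.43 ± 0.24 SE, edgeR adjusted p = 0.309). Its partner MAX stood at 125 and 130 CPM in PA, against 67.0 and 99.7 CPM in BSA (0.61, edgeR adjusted p = 0.235), and E2F1, a driver of S-phase genes, at 95.1 and 101 CPM in PA, against 125 and 260 CPM in BSA (-0.97, edgeR adjusted p = 0.211; -0.34 without BSA replicate 2).

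**Figure D4:**
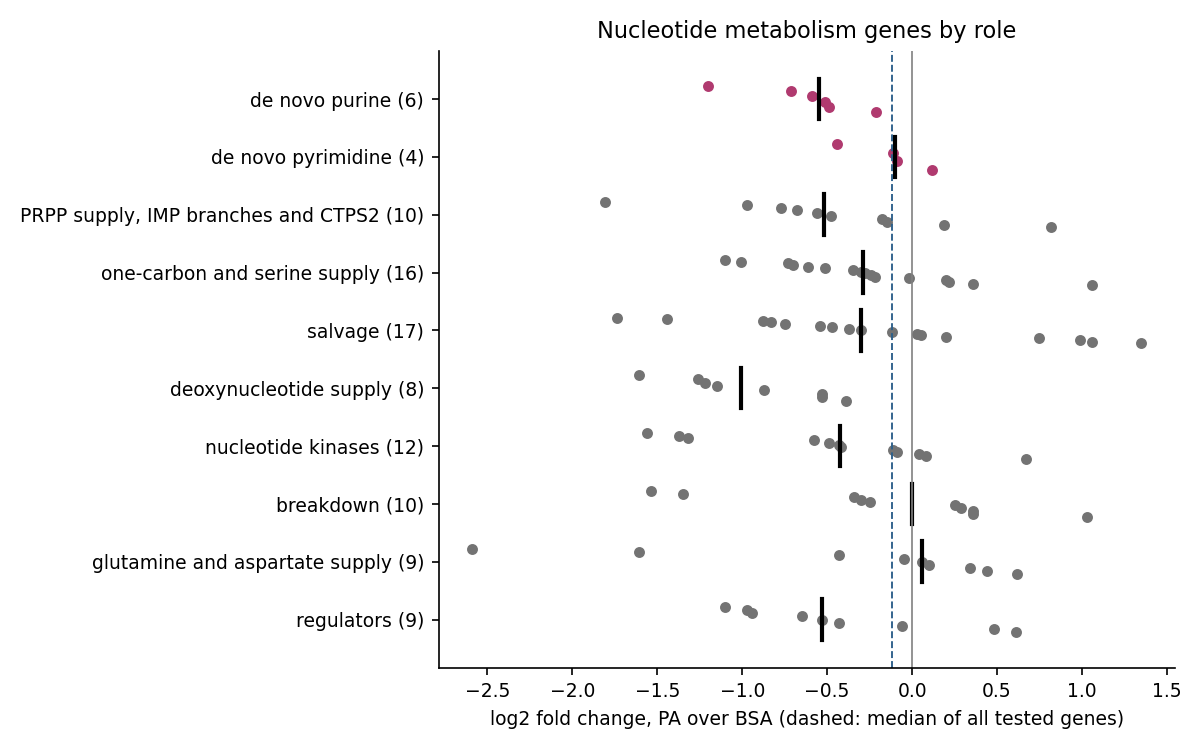
Log2 fold change of PA over BSA (horizontal axis) for each tested gene (points) of the de novo routes and of the 8 surrounding lists, with the number of genes in brackets, black bars for list medians and a dashed line for the median of all genes tested. The deoxynucleotide genes lie wholly below 0, while salvage, breakdown and supply genes spread to both sides.

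The 5 protein-coding genes whose pattern over the 4 libraries lay nearest to the median profile of the 10 members were MRFAP1, DSN1, SPATA20, EARS2 and COQ8B. Likeness was the Euclidean distance between log2 CPM profiles centred on each gene's mean, over 9494 genes with a mean of at least 10 CPM, and the 5 distances were 0.030 to 0.047. Their log2 fold changes were -0.33 to -0.35. Among the members themselves, PFAS (0.16), ATIC (0.22) and UMPS (0.23) lay nearest to that profile, and PPAT (1.0) and PAICS (1.1) lay farthest. CAD (0.80) and GART (0.71) came next in distance. The median profile thus described the moderate members and not PPAT, PAICS, CAD or GART, which differed widely between the BSA libraries.

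On chromosome 4, the genes beside the pair were also read. AASDH, next to PPAT, had 37 and 16 counts in PA, against 304 and 50 counts in BSA, and SRP72, beyond PAICS, had 2622 and 2288 counts in PA, against 4079 and 2850 counts in BSA. In both, BSA replicate 1 was the highest library, as in PPAT and PAICS. BSA replicate 1 also lay above BSA replicate 2 in many other genes of low GC content. Genes of GC bin 1, which holds PPAT, had a median log2 ratio between these libraries of -1.45 (replicate 2 over replicate 1). In bin 3, which holds PAICS, the median was -0.59, against -1.15 for PAICS itself. Bins 5 to 10 went the other way, with medians of 0.03 to 0.45. AASDH had a ratio of -2.64 and SRP72 of -0.61, but neither was set against genes of like GC content. The part of the locus in these ratios was not tested. AASDH had a log2 fold change of -2.56 (edgeR adjusted p = 0.199) and SRP72 of -0.25 (edgeR adjusted p = 0.586).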

How the data were processed

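The submitters' processing notes name HISAT2, StringTie and SAMtools with build hg38, without versions. The counting settings, annotation release and strand use were not given in the sources used here. Per the labels' protocols, libraries were made with a NEBNext Ultra kit. The authors deposited raw read counts per gene and FPKM values, per the file headers. Counts were tested with edgeR 4.0.16 (R 4.3.3; TMM factors, filterByExpr, quasi-likelihood F test, Benjamini-Hochberg over 17449 genes, threshold 0.05), after tests on simulated data. CPM are TMM-normalised. SEs were taken as the fold change on the log2 scale over the root of F. Alternatives used DESeq2 1.42.0 and limma 3.58.1 (voom, or log2(FPKM + 1) and log2(FPKM + 0.1)). GC content and length came from the longest GENCODE 29 transcript (95.1% of tested genes; loess span 0.3). Median chi-square between replicates over genes was 2.10 for PA and 23.9 for BSA, so no library was a copy. Groups followed the titles.

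Members and lists were chosen with earlier results of these data known. All 10 members were named. From each list the 3 genes of smallest p were named, with IMPDH1, IMPDH2, GMPS, CTPS2, PRPS1, PRPS2, RRM2, MYC, SPTLC2 and ZDHHC15 always; 2 genes that this rule names are not reported here. SGSM3, AASDH, SRP72 and the marker genes were named after their values were seen or as checks. Intervals and SEs do not cover errors of annotation. Figures were drawn with matplotlib 3.10.9.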

Additional observations from a re-analysis of the deposited data

How the results depend on the processing

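The number of genes called over all genes was 0 under RLE or upper-quartile scaling and when 1 CPM in 2 libraries was required, but 1302 without a filter, 1824 with DESeq2, 1 with limma-voom, 1 with each FPKM fit, 537 with a replicate block, 1546 with the GC and length trend removed, 2609 with both, and 9 to 10467 with a library left out. The median log2 fold change of the members was negative throughout; it was -0.37 with limma-voom, -0.38 with the replicate block, -0.33 with log2(FPKM + 1), and -0.43 to -0.27 with a library left out. Members lower at an unadjusted p under 0.05 numbered 2 with the 1 CPM filter and both FPKM fits, 0 with limma-voom, 5 with the trend removed with or without the block, and 0 to 7 with a library left out; members higher numbered 0 to 1 with a library left out. Over all genes and in either direction, 3659 of 14896 had an unadjusted p under 0.05 with the 1 CPM filter and 3957 of 17449 with limma-voom. The number was 4073 of 17449 with log2(FPKM + 1) and 4176 of 17449 with log2(FPKM + 0.1). It was 5227 of 16596 with the trend removed and 5049 of 16596 with the block as well. PPAT turned positive with the trend removed (0.26, and 0.28 with the block) and CAD turned negative (-0.17, and -0.15 with the block). With a library left out, PPAT ran from -1.01 to 0.39, CAD from -0.24 to 0.67, DHODH from -0.15 to 0.02, CTPS1 from -0.26 to 0.10, PRPS1 from -0.32 to 0.01 and GDA from -2.02 to 0.01. The cause was not tested. Whether equal replicate numbers mark pairs could not be settled. Deviations of same-numbered libraries had a correlation of 0.008, but 2 libraries per group cannot show whether libraries were paired. Under the block, PAICS was the 1 member lower at an unadjusted p under 0.05, as without it. Depth was lowest for ADSL, at 140 counts in its smallest library.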

Other observations

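The KEGG pathways in the deposited annotation, counted after the data were seen, gave a wider view. Purine metabolism held 93 tested genes beside the members, with 10 lower and 9 higher in PA at an unadjusted edgeR p under 0.05 and a median log2 fold change of -0.25. Pyrimidine metabolism held 45 beside the members, with 6 lower and 3 higher and a median of -0.39. Over all genes tested, 11.2% were lower and 13.1% higher.

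HPRT1 and APRT, which salvage free purine bases, were 2 of the 3 salvage genes lower at an unadjusted edgeR p under 0.05. HPRT1 stood at 17.9 and 16.8 CPM in PA, against 89.7 and 26.1 CPM in BSA (log2 fold change -1.74, edgeR adjusted p = 0.183). This value rested largely on BSA replicate 1. The log2 ratio of the PA mean was -2.37 over BSA replicate 1 and -0.59 over BSA replicate 2. APRT stood at 57.6 and 64.9 CPM in PA, against 85.9 and 120 CPM in BSA (log2 fold change -0.75, edgeR adjusted p = 0.176). The groups overlapped in neither. These genes were chosen after their values were seen.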
